A study of Mus musculus with 2 samples.

Results

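The MHC class I presentation machinery was followed through the immune cells of lenvatinib-resistant mouse liver tumors with 10 genes taken from a list: H2-K1, H2-D1, B2m, Tap1, Tap2, Tapbp, Nlrc5, Psmb8, Psmb9 and Psmb10, out of 32285 genes in the count matrices. All 10 were present in both matrices, and none had fewer than 37 UMIs in any gated cell type of either library. Hepatocellular carcinoma had been induced in wild-type male C57BL/6J mice by hydrodynamic injection of plasmids carrying human MYC, a guide against Trp53 and sleeping beauty transposase (Trp53KO/MYCOE), so that the genetic change was made in liver cells and the immune cells were those of the host. All mice had received lenvatinib, a multikinase inhibitor, until resistance, and then either lenvatinib (lenvatinib library) or lenvatinib and palbociclib, an inhibitor of CDK4 and CDK6 (combo library). Live CD45+ cells were sorted from the tumors after a Percoll gradient and profiled by droplet-based 3′ v3 scRNA sequencing, with 1 library per condition and an unstated number of mice behind each. The question put to the data was which immune cell types carried transcripts of this machinery, and how the levels in the combo library stood to those in the lenvatinib library. With 1 library per condition there was no replicate, so no test between conditions was possible, and treatment, mice and library preparation cannot be told apart.

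MHC class I molecules display peptides from inside the cell to CD8+ T cells. Proteasomes cut proteins into peptides, and the immunoproteasome subunits encoded by Psmb8, Psmb9 and Psmb10 replace constitutive subunits in immune cells and under interferon. The peptides are pumped into the endoplasmic reticulum by the TAP1 and TAP2 transporter, and tapasin, encoded by Tapbp, holds the transporter close to empty class I molecules during loading. The heavy chains H2-K and H2-D, encoded by H2-K1 and H2-D1, then leave for the cell surface with beta-2-microglobulin, encoded by B2m. NLRC5 is the transactivator of class I genes and acts through a shared promoter module of W/S, X and Y boxes, whereas interferon gamma raises the transcription of many of these genes. Class I is made by nearly all nucleated cells, and lymphocytes are known for high levels of it.

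In GENCODE coordinates of GRCm38, 7 of the 10 genes lie on chromosome 17, in or beside the major histocompatibility complex. H2-K1 spans chr17:33996017-34000347 on the minus strand and H2-D1 spans chr17:35262730-35267499 on the plus strand. Psmb9, Tap1, Psmb8 and Tap2 are neighbors, with Psmb9 at chr17:34181987-34187764 on the minus strand, Tap1 at chr17:34187553-34197225, Psmb8 at chr17:34197721-34201454 and Tap2 at chr17:34203527-34216321, the last 3 on the plus strand. Psmb9 and Tap1 start head to head, and their annotated spans overlap by 212 bp. Tapbp lies at chr17:33915899-33929292 and B2m at chr2:122147686-122153083, both on the plus strand. Nlrc5 at chr8:94434356-94527272 on the plus strand and Psmb10 at chr8:105935735-105938444 on the minus strand lie far apart on chromosome 8. Nlrc5 spans 92.9 kb and was the longest of the 10, since the others span 2.71 to 13.4 kb.

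RefSeq promoters (GRCm38.p6) were found for 8 of the 10 genes, with Tap2 and Nlrc5 unmatched, and were searched on both strands over the 250 bases before the start. The windows of H2-D1, Psmb8, Psmb9 and Tapbp lie within the GENCODE spans of these genes, whose annotated starts are further upstream, so that their bases, those of H2-D1 shown here included, are part of annotated transcribed regions. Stretches of H2-K1 and B2m are shown because these are the chains of the classical molecule, and the capitals mark matches to the letters GGGGATTCC (NF-kappaB), TGACG (part of the X2 box), ATTGG (Y box) and GAAANNGAA (part of the interferon response element).
H2-K1, chr17:34000354-34000463, minus strand: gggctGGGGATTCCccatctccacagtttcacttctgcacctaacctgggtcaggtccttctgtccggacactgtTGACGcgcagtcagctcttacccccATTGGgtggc
B2m, chr2:122147543-122147643, plus strand: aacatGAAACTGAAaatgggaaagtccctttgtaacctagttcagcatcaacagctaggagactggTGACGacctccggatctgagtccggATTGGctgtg
The TGACG and ATTGG letters had the same spacing in the 3 chain genes, from the first base of TGACG to the last of ATTGG in 30 bases, with H2-D1 at chr17:35262993-35263022 on the plus strand.
H2-K1: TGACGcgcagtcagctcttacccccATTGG
H2-D1: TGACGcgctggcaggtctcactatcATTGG
B2m: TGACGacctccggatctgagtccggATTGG
In these 30 bases H2-K1 and H2-D1 were identical at 23 positions, H2-K1 and B2m at 13, and H2-D1 and B2m at 12. The NF-kappaB letters stood in the same surroundings in the heavy chain genes, as gggctGGGGATTCCccatc in both H2-K1 and H2-D1. Over 190 bases aligned without gaps, the H2-K1 and H2-D1 promoters were 87.4% identical.

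The letters were counted over all promoters of the table as a background. NF-kappaB letters were present in 2 of the 8 promoters, H2-K1 and H2-D1, and in 0.213% of 32851 promoters. The Y box letters were present in 6 of 8 and in 33.8% of all promoters, and the TGACG letters in 5 of 8 and in 17.8%. The windows of Psmb9 and Tap1 overlap, so that their Y box and TGACG letters are the same bases read from opposite strands and are counted for both genes. The exact letters GAAANNGAA, part of the interferon response element, were found in B2m only (1 of 8, with 7.13% of all promoters). The letters TTCNNNGAA of the interferon gamma activated site were found in Psmb8 only (1 of 8, with 7.02%). A match describes letters in the window and not binding. Variants of these letters were not searched, so the lack of a match does not show that an element is absent.

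The lenvatinib library held 14509 barcodes and 98107503 UMIs, and the combo library 11989 barcodes and 93583402 UMIs. Removal of cells above 6000 genes or above 25% mitochondrial UMIs left 14201 cells with a median of 5541 UMIs under lenvatinib and 11613 cells with a median of 5754 under combo. A total of 49 barcodes occurred in both libraries. A cell was gated to a type when it had at least 1 UMI of the gate gene and none of the other 5 gate genes, namely Cd3e for T, Ncr1 for NK, Cd79a for B, Csf1r for monocytes/macrophages, Csf3r for neutrophils and Flt3 for dendritic cells. This placed 65.8% of cells under lenvatinib and 64.6% under combo in 1 type, whereas 17.9% and 12.5% had no gate gene and 16.4% and 23% had several. The gates held 5173 and 3795 T cells, 2509 and 981 NK cells, 535 and 604 B cells, 192 and 432 monocytes/macrophages, 681 and 1468 neutrophils, and 249 and 217 dendritic cells (lenvatinib and combo).

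All 5 check markers of each type were highest in their own gate in both libraries, except Cd209a of the dendritic markers, which was highest in the monocyte/macrophage gate under lenvatinib (180 CPM, the count of a gene scaled to the total of its gate and library, against 133 CPM in the dendritic gate). Siglech, a marker of plasmacytoid dendritic cells, reached 1009 CPM under lenvatinib and 820 CPM under combo in the dendritic gate, so that this gate mixed plasmacytoid and other cells. Ptprc, which encodes CD45, was present in every gate and was lower under combo in all 6, with 1687 and 1127 CPM in T cells (lenvatinib and combo). The 4 hepatocyte markers stayed at or below 9.70 CPM in every gate of both libraries. Neutrophil transcripts differed outside the neutrophil gate as well, since S100a8 and S100a9 made up 0.0368% of T cell UMIs under lenvatinib and 0.283% under combo, and 0.0328% and 1.01% of B cell UMIs. The part of such transcripts in the levels below was not tested.

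Levels are compared within a gene, because 3′ capture differs between genes. Among the heavy chain genes, H2-K1 was highest in lymphocytes other than B cells. Under lenvatinib its level was 3285 CPM in NK cells, 2917 in T cells, 1721 in dendritic cells, 1636 in monocytes/macrophages, 1604 in B cells and 1364 in neutrophils. Under combo it was 3476 CPM in NK cells, 2957 in T cells, 1519 in B cells, 1474 in dendritic cells, 1133 in monocytes/macrophages and 684 in neutrophils. The T and NK gates thus stood above the other 4 in both libraries, and the gap between the highest and the lowest gate was 2.41-fold under lenvatinib and 5.09-fold under combo. Within counting error monocytes/macrophages were not separated from dendritic cells or from B cells under lenvatinib, and B and dendritic levels were not separated under combo (overlapping exact Poisson 95% intervals, which cover counting error only).

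H2-D1 had a flatter profile. Its level under lenvatinib was 1397 CPM in NK cells, 1167 in monocytes/macrophages, 1141 in T cells, 1090 in neutrophils, 1069 in dendritic cells and 789 in B cells. Under combo it was 1934 CPM in NK cells, 1582 in T cells, 1148 in neutrophils, 1145 in monocytes/macrophages, 1140 in dendritic cells and 984 in B cells. NK cells were highest and B cells lowest in both libraries, and the monocyte/macrophage, neutrophil and dendritic gates were close to each other. B2m followed H2-K1 more closely, with 2447 CPM in NK cells, 2284 in T cells, 2002 in monocytes/macrophages, 1772 in dendritic cells, 1738 in neutrophils and 1635 in B cells under lenvatinib. Under combo B2m was at 2187 CPM in NK cells, 2072 in T cells, 1645 in B cells, 1413 in dendritic cells, 1373 in monocytes/macrophages and 788 in neutrophils. Neutrophils were therefore lowest for both H2-K1 and B2m under combo, and not for H2-D1.

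**Figure D1:**
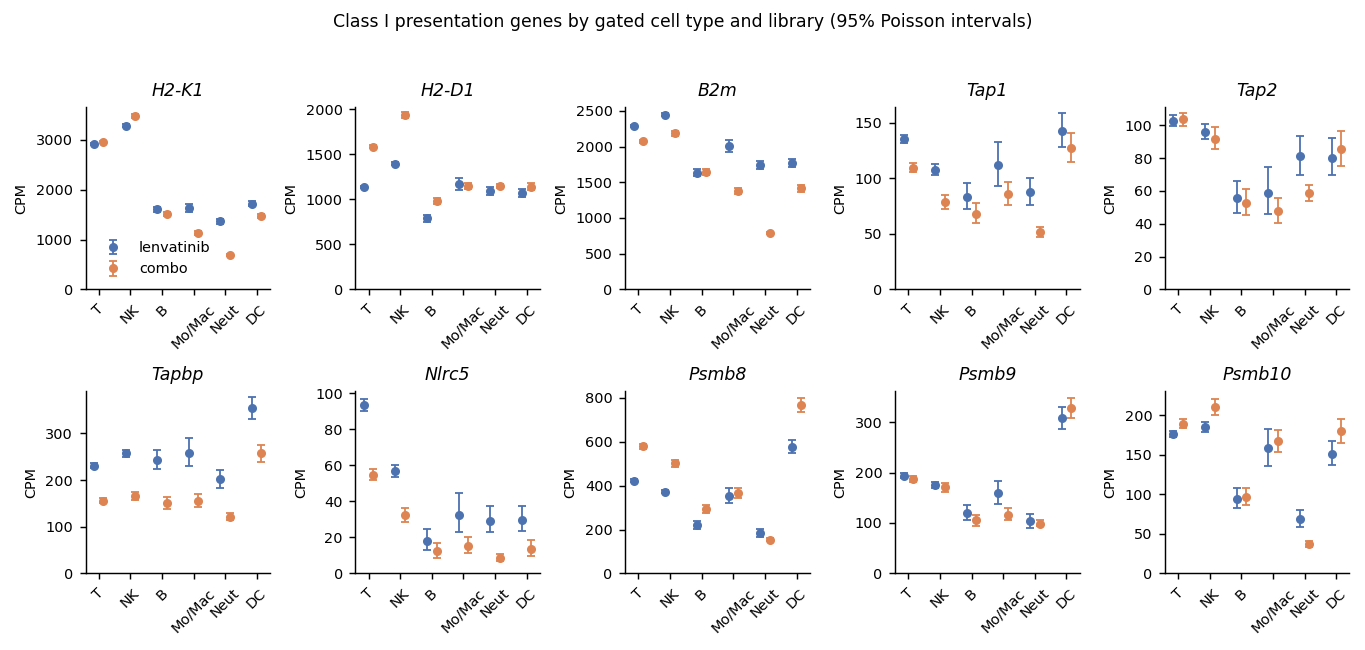
Level of each gene in CPM (y axis, from 0) in 6 gated cell types (x axis) of the lenvatinib (blue) and combo (orange) libraries, where each point is 1 library and bars are exact Poisson 95% intervals (counting error only). H2-K1 was highest in NK cells at 3285 and 3476 CPM, while Psmb8 and Psmb9 were highest in dendritic cells and Nlrc5 in T cells.

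The transporter and loading genes were highest in dendritic cells or T cells. Tap1 was highest in dendritic cells (143 and 127 CPM under lenvatinib and combo), followed by T cells (135 and 109 CPM, not separated from dendritic cells under lenvatinib), and lowest in B cells under lenvatinib (83.4 CPM) and in neutrophils under combo (51.4 CPM). Tap2, whose product pairs with that of Tap1, was highest in T cells at 103 and 104 CPM and lowest in B cells under lenvatinib (55.6 CPM) and monocytes/macrophages under combo (47.6 CPM). Under lenvatinib the Poisson intervals overlapped in all 5 neighboring pairs of gates in the order of Tap2. The interval of the ratio of NK to T cells was still below 1 (0.935, 0.884 to 0.989). Tapbp reached 353 CPM in dendritic cells under lenvatinib and 257 CPM under combo, and 201 and 122 CPM in neutrophils, its lowest gate in both libraries.

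The immunoproteasome genes Psmb8 and Psmb9 shared the same order of gates in both libraries: dendritic, T, NK, monocyte/macrophage, B and neutrophil. Psmb8, which encodes the subunit LMP7, was at 576, 423, 373, 354, 220 and 182 CPM in that order under lenvatinib. Under combo Psmb8 was at 766, 579, 501, 366, 293 and 153 CPM, and no neighbors overlapped. Psmb9, which encodes LMP2 and shares its start region with Tap1, ranged from 308 CPM in dendritic cells to 103 CPM in neutrophils under lenvatinib, and from 327 to 98.9 CPM under combo. Psmb10, which encodes MECL-1, was highest in NK cells instead (185 and 211 CPM) and lowest in neutrophils (68.5 and 36.7 CPM).

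Nlrc5 had the steepest profile of the 10 in both libraries by the ratio of the highest to the lowest gate, 5.16-fold under lenvatinib and 6.24-fold under combo. Its level was 93.5 CPM in T cells, 56.5 in NK cells, 32.5 in monocytes/macrophages, 29.8 in dendritic cells, 29.3 in neutrophils and 18.1 in B cells under lenvatinib. Under combo it was 54.7 CPM in T cells, 32.2 in NK cells, 15.2 in monocytes/macrophages, 13.7 in dendritic cells, 12.3 in B cells and 8.77 in neutrophils. T and NK cells were separated from the rest in both libraries, and the Poisson intervals of neighbors among the other 4 gates overlapped. The Nlrc5 level of NK cells was 0.605 times that of T cells under lenvatinib (95% interval 0.564 to 0.648) and 0.589 times under combo (0.513 to 0.674). Counting which gate led, 6 of the 10 genes were highest in T or NK cells and 4 in dendritic cells in both libraries, and 5 were lowest in neutrophils under lenvatinib and 8 under combo.

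The share of cells with a UMI was compared next. At an equal depth of 2000 UMIs per cell, reached by random thinning without the cells below that depth (317 and 107 T cells and 189 and 101 neutrophils under lenvatinib and combo), H2-K1 had a UMI in 99.1% and 98.9% of T cells and in 86.6% and 68.1% of neutrophils. Without thinning the shares were 99.7% and 99.8% of T cells and 92.1% and 92.1% of neutrophils. The neutrophil shares were equal before thinning, at a median depth of 2516 and 4744 UMIs, and differed among the cells kept at equal depth, from which the shallower cells were left out. Nlrc5 had a UMI in 18.8% and 11.0% of thinned T cells and in 4.47% and 2.34% of thinned neutrophils. No gated type lacks class I, so the share from free RNA was not measured. The summed UMIs of H2-K1, H2-D1 and B2m had a median of 13 and 14 in thinned T cells, 14 and 16 in NK cells, 8 and 8 in B cells, 9 and 6 in monocytes/macrophages, 8 and 5 in neutrophils, and 9 and 9 in dendritic cells. Under combo, 22 of 1367 thinned neutrophils had none of these UMIs (1.61%, exact Clopper-Pearson 95% interval 1.01 to 2.43%), against 1 of 492 under lenvatinib (0.203%, 0.00515 to 1.13%).

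Between the libraries, the 10 genes did not move as 1 block. Across the 60 pairs of gene and gate, no CPM ratio of combo to lenvatinib was at least 1.5-fold higher and 13 were at least 1.5-fold lower. The intervals of these ratios, exact for a pair of Poisson counts and covering counting error only, lay above 1 for 14 pairs, below 1 for 29 and held 1 for 17. Of all tested genes, 18.1% had an interval above 1 and 43.8% below 1 in T cells, 15.9% and 34.8% in NK cells, 5.58% and 48.4% in B cells, 11.4% and 24.0% in monocytes/macrophages, 6.81% and 55.8% in neutrophils, and 13.4% and 23.6% in dendritic cells. Over all genes with at least 50 UMIs in both libraries of a gate, the median log2 ratio was -0.15 in T cells, -0.12 in NK cells, -0.41 in B cells, -0.15 in monocytes/macrophages, -0.55 in neutrophils and -0.09 in dendritic cells. A CPM ratio is read here against this shift, since most genes were lower under combo in CPM. Relative to the median of all genes, H2-D1 in T, NK, B and neutrophil gates and Psmb8 in T and B cells were at least 1.5-fold higher. Only Nlrc5 in every gate but B cells and B2m in neutrophils were then at least 1.5-fold lower. H2-D1 and Psmb8 are short genes, and relative to genes of similar span none of their pairs was at least 1.5-fold higher, as given below.

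In T cells 0 of the 10 genes were at least 1.5-fold higher and 1 was at least 1.5-fold lower, where 5.85% and 13.5% of all tested genes were. In NK cells 0 and 2 were (5.36% and 13.3% of all genes), and in B cells 0 and 1 (2.85% and 37.8%). In monocytes/macrophages 0 and 2 were (7.64% and 18.4%), in neutrophils 0 and 6 (4.59% and 47.0%), and in dendritic cells 0 and 1 (5.83% and 13.2%). The neutrophil count stands in a gate where close to the same share of all genes was lower. The median log2 ratio of the 10 genes was -0.02 in T cells, -0.05 in NK cells, -0.08 in B cells, -0.41 in monocytes/macrophages, -0.75 in neutrophils and -0.04 in dendritic cells, which was below the median of all genes in monocytes/macrophages and neutrophils and above it in the other 4 gates.

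**Figure D2:**
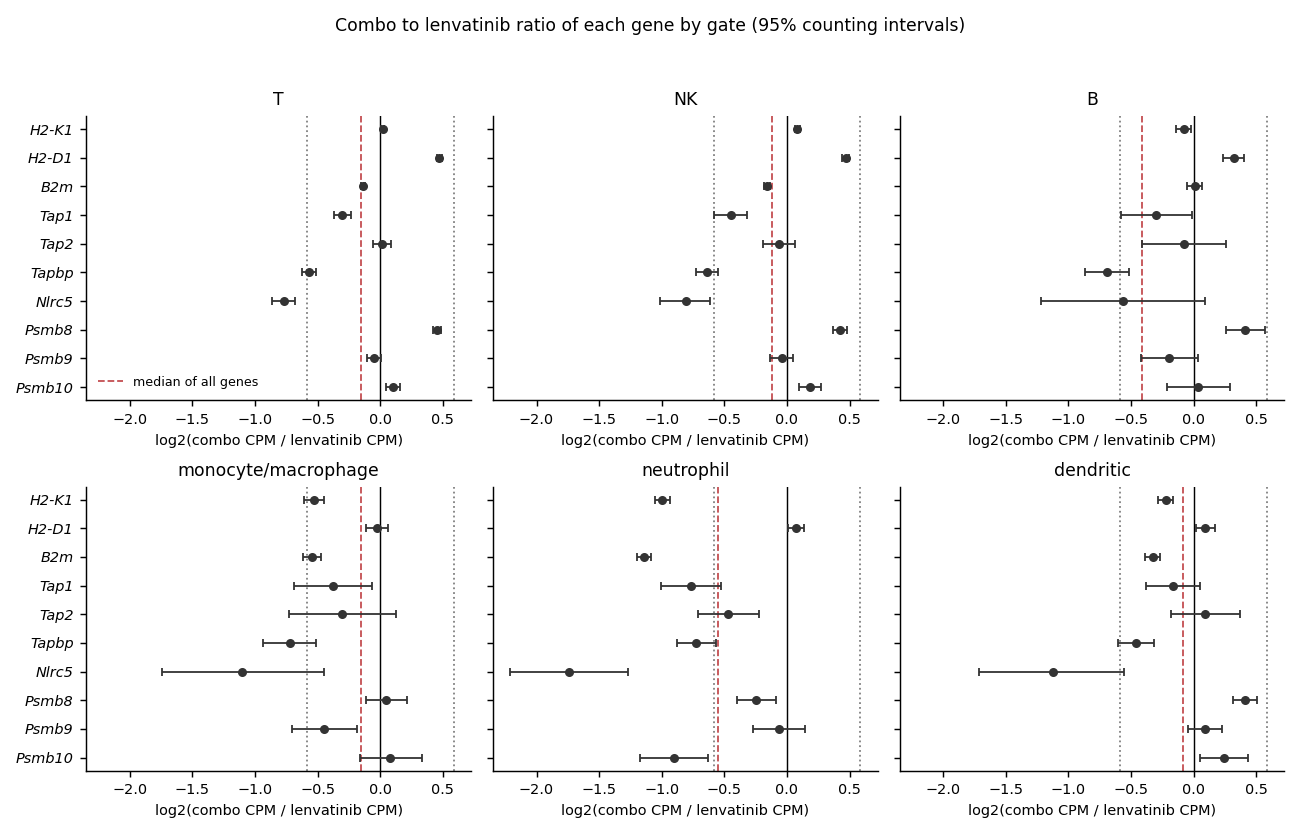
log2 ratio of combo to lenvatinib CPM (x axis) of each of the 10 genes (y axis) in 6 gates, with 95% intervals for counting error only, the median of all genes as a dashed line and the 1.5-fold limits as dotted lines. Tapbp and Nlrc5 lie left of 0 in every gate, H2-D1 lies right of 0 in 5 of 6 gates, and H2-K1 and B2m reach log2 ratios of -0.996 and -1.14 in neutrophils.

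In CPM, Nlrc5 and Tapbp were lower under combo in all 6 gates, and also relative to the median of all genes. For Nlrc5 the ratio of combo to lenvatinib was 0.586 in T cells (95% interval 0.549 to 0.624), 0.570 in NK cells (0.495 to 0.654), 0.677 in B cells (0.430 to 1.06), 0.466 in monocytes/macrophages (0.298 to 0.733), 0.299 in neutrophils (0.216 to 0.415) and 0.459 in dendritic cells (0.306 to 0.682). The interval held 1 in B cells, where 43 and 41 UMIs were counted. Relative to the median of all genes its log2 ratio was -0.62 in T cells, -0.69 in NK cells, -0.15 in B cells, -0.95 in monocytes/macrophages, -1.19 in neutrophils and -1.03 in dendritic cells. In dendritic cells 1.80% of all tested genes had a lower ratio than Nlrc5, in neutrophils 2.58%, in T cells 6.47% and in B cells 39.3%. For Tapbp the ratio lay between 0.605 in neutrophils and 0.728 in dendritic cells, with 0.676 in T cells (0.650 to 0.702), and all 6 intervals were below 1. Its log2 ratio relative to all genes was -0.41 in T cells, -0.52 in NK cells and -0.17 in neutrophils. In UMIs per cell Tapbp was higher under combo in neutrophils (0.686 and 0.880) and close to equal in dendritic cells (3.52 and 3.54).

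Gene length moved with the ratio across all genes. In T cells the median log2 ratio was 0.04 over 2804 genes with a span under 10 kb, -0.13 for 10 to 30 kb, -0.29 for 30 to 100 kb and -0.30 over 100 kb, and in all 6 gates genes over 100 kb had a lower median than genes under 10 kb. Nlrc5 belongs to the class of 30 to 100 kb. Relative to that class, a comparison chosen after the data were seen, its log2 ratio was -0.49 in T cells, -0.54 in NK cells, 0.03 in B cells, -0.87 in monocytes/macrophages, -1.09 in neutrophils and -0.89 in dendritic cells. The value thus stayed below that of its span class in 5 of 6 gates and not in B cells. Tapbp, with a span of 13.4 kb, was below the median of its class in all 6 gates. H2-D1 and Psmb8 span under 10 kb, a class whose median was above that of all genes in every gate. In T cells their log2 ratios were 0.47 and 0.45, with a class median of 0.04. In B cells they were 0.32 and 0.41, with a class median of -0.12. Relative to their class neither was at least 1.5-fold higher in any gate.

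**Figure D3:**
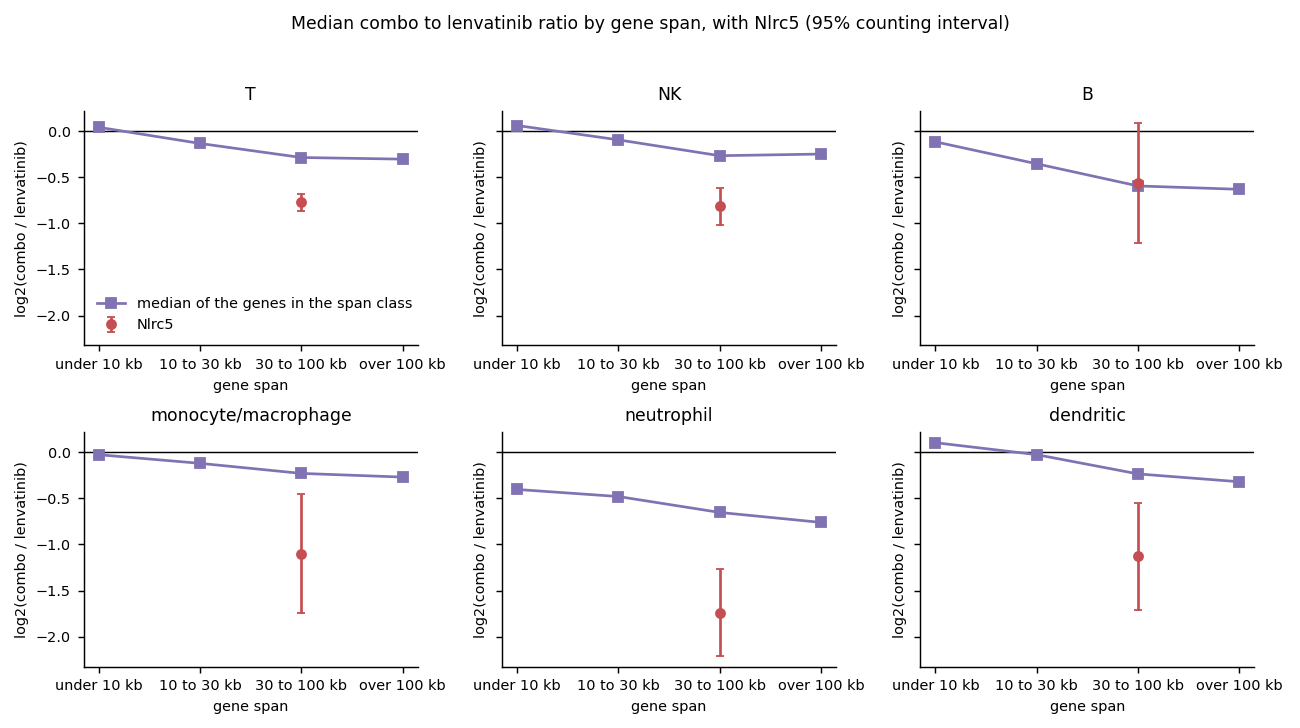
Median log2 ratio of combo to lenvatinib CPM (y axis) of all genes in 4 classes of gene span (x axis, squares) by gate, with Nlrc5 (circle, 95% counting interval) in its class of 30 to 100 kb. Genes over 100 kb had lower medians than genes under 10 kb in every gate, and Nlrc5 lies below its class except in B cells, where it lies at -0.56 and the class median at -0.59.

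The heavy chains moved apart. H2-D1 was higher under combo in T cells (1.39-fold, 1.37 to 1.41), NK cells (1.38-fold, 1.36 to 1.41) and B cells (1.248-fold, 1.18 to 1.32), with 0.981 in monocytes/macrophages (0.922 to 1.05, and 1.13, 1.05 to 1.21, in the 148 and 396 of these cells without C1qa), 1.05 in neutrophils (1.01 to 1.10) and 1.07 in dendritic cells (1.01 to 1.12). Its ratio was above that of all genes in all 6 gates, by 0.62 on the log2 scale in T cells and 0.62 in neutrophils. H2-K1 was close to equal in T cells (1.014, 1.004 to 1.023), 1.06 in NK cells (1.04 to 1.07) and 0.947 in B cells (0.908 to 0.988), and was lower in monocytes/macrophages (0.692, 0.655 to 0.732), neutrophils (0.501, 0.481 to 0.523) and dendritic cells (0.856, 0.821 to 0.893). B2m was at 0.907 in T cells, 0.894 in NK cells, 1.01 in B cells, 0.686 in monocytes/macrophages, 0.453 in neutrophils (0.437 to 0.471) and 0.798 in dendritic cells. The lower CPM values of H2-K1 and B2m were thus found mainly in the monocyte/macrophage, neutrophil and dendritic gates, where both were also below the median of all genes, with log2 differences of -0.45 for H2-K1 and -0.59 for B2m in neutrophils. In UMIs per cell both were higher under combo in dendritic cells, H2-K1 at 17.1 and 20.3 and B2m at 17.7 and 19.5. The monocyte/macrophage gate differed in makeup, with C1qa cells at 44 of 192 and 36 of 432 and the summed level of 5 neutrophil markers at 2369 and 18402 CPM. In its cells without C1qa the ratio was 0.761 for H2-K1 (0.714 to 0.812) and 0.753 for B2m (0.710 to 0.798). The summed level of 5 T markers was 252 and 142 CPM in the monocyte/macrophage gate and 307 and 140 CPM in the neutrophil gate (lenvatinib and combo). That of 5 NK markers was 422 and 62.1 CPM in the first and 351 and 56.6 CPM in the second. The part of these lymphocyte markers and of the neutrophil transcripts was not tested.

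The ratio of H2-K1 to H2-D1 UMIs within a gate does not depend on the total of the library. It went from 2.56 under lenvatinib to 1.87 under combo in T cells, from 2.35 to 1.80 in NK cells, from 2.03 to 1.54 in B cells, from 1.40 to 0.989 in monocytes/macrophages, from 1.251 to 0.596 in neutrophils and from 1.61 to 1.29 in dendritic cells. It was lower under combo in all 6 gates, with no overlap of the 95% counting intervals in any of them. In neutrophils H2-K1 was the more abundant count under lenvatinib and H2-D1 under combo. The transcripts of the heavy chains are similar, and 4.69% of the 60-base words in the last 500 bases of H2-K1 and 3.56% of those of H2-D1 occurred in transcripts of other genes, H2-D1 and H2-Q genes among those for H2-K1. The effect of such shared reads on the ratio was not tested.

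In neutrophils CPM and UMIs per cell gave different answers. H2-K1 was at 4.64 UMIs per cell under lenvatinib and 4.94 under combo (ratio 1.06), B2m at 5.92 and 5.69 (0.962), and H2-D1 at 3.71 and 8.29 (2.23). Nlrc5 was lower by both measures, with 0.0999 and 0.0634 UMIs per cell (0.634). The share of S100a8 and S100a9 in neutrophil UMIs was 11.0% under lenvatinib and 24.0% under combo, and the median depth was 2516 and 4744 UMIs. Fewer transcripts per cell and a larger total cannot be told apart from CPM. In T cells H2-D1 was higher by both measures (7.92 and 10.1 UMIs per cell), as were the NK values (10.6 and 15.5).

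The immunoproteasome genes differed among themselves. Psmb8 was higher under combo in T cells (1.37-fold, 1.34 to 1.40), NK cells (1.34-fold, 1.29 to 1.40), B cells (1.33-fold, 1.19 to 1.48) and dendritic cells (1.33-fold, 1.24 to 1.42), with 1.03 in monocytes/macrophages (0.922 to 1.16) and 0.843 in neutrophils (0.757 to 0.941), where it was above the median of all genes by 0.30 on the log2 scale. Psmb9 had intervals that held 1 in T, NK, B, neutrophil and dendritic cells, with 0.966 in T cells, and was at 0.733 in monocytes/macrophages (0.613 to 0.880). Psmb10 was at 1.07 in T cells (1.03 to 1.12), 1.14 in NK cells (1.07 to 1.21), 1.18 in dendritic cells (1.04 to 1.35) and 0.535 in neutrophils (0.444 to 0.647). At an equal depth of 2000 UMIs the log2 ratio of Psmb10 in dendritic cells was -0.215, the other side of 0. In UMIs per cell both were higher under combo in neutrophils, Psmb8 at 0.620 and 1.11 and Psmb10 at 0.233 and 0.265. Against the constitutive subunits that they replace, Psmb8 to Psmb5 went from 4.04 to 5.46 in T cells, from 2.28 to 3.44 in B cells and from 2.44 to 1.73 in neutrophils. The ratio of Psmb10 to Psmb7 went from 2.46 to 3.54 in T cells and from 1.52 to 2.25 in dendritic cells, and Psmb9 to Psmb6 from 1.75 to 1.51 in T cells and from 1.10 to 0.738 in monocytes/macrophages. In T cells the ratio was thus higher under combo for 2 of the 3 pairs and lower for Psmb9 to Psmb6. Psmb10 spans 2.71 kb and Psmb7 56.1 kb. The median log2 ratios of their span classes were 0.04 and -0.29 in T cells and 0.10 and -0.24 in dendritic cells. The part of gene length in the ratio of Psmb10 to Psmb7 was not tested. In CPM the transporter gene Tap1 was lower under combo in all 6 gates, with an interval below 1 in 5 (0.810 in T cells, 0.772 to 0.849, and 0.587 in neutrophils, 0.499 to 0.693), although relative to the median of all genes it was higher in B cells, by 0.11 on the log2 scale, whereas the interval of its neighbor Psmb9 was below 1 in 1 gate. Tap2 had an interval below 1 in neutrophils only (0.722, 0.613 to 0.855), and was above the median of all genes there by 0.08 and higher under combo in UMIs per cell (0.276 and 0.423). In UMIs per cell Tap1 was higher under combo in neutrophils (0.298 and 0.371) and dendritic cells (1.42 and 1.76) and close to equal in B cells (0.370 and 0.376). At equal depth the log2 ratio of Tap1 in monocytes/macrophages turned to 0.148, and that of Tap2 was -0.791 in dendritic cells, against 0.09 in CPM, and -0.877 in monocytes/macrophages, against -0.31.

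**Figure D4:**
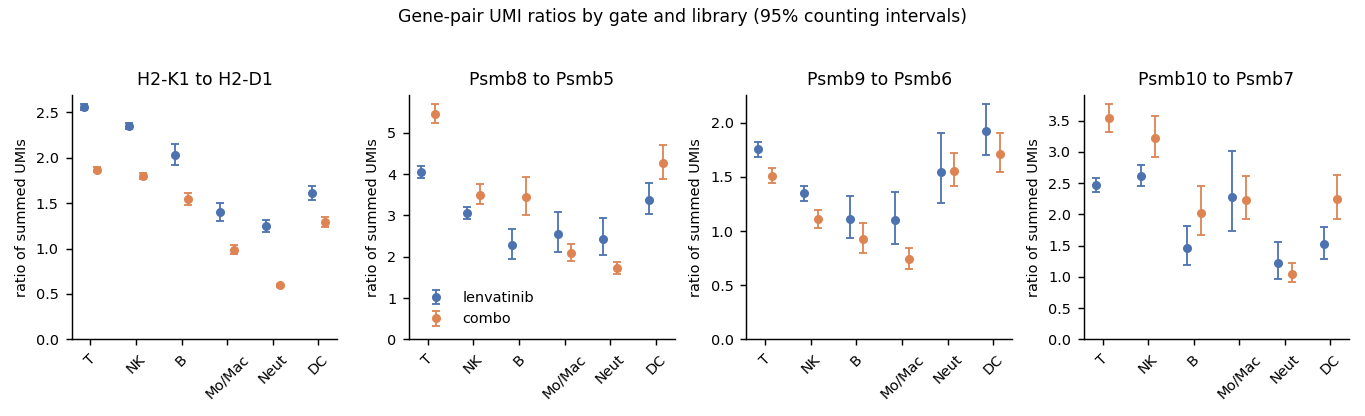
Ratio of summed UMIs of a pair of genes (y axis, from 0) in 6 gates (x axis) under lenvatinib (blue) and combo (orange), with 95% counting intervals. H2-K1 to H2-D1 was lower under combo in all gates (2.56 and 1.87 in T cells), and Psmb8 to Psmb5 was higher in T, NK, B and dendritic cells and lower in neutrophils.

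Finer gates were available where at least 50 cells remained in both libraries. In T cells, Cd8a cells without Cd4 numbered 2823 and 2025, Cd4 cells without Cd8a and Foxp3 328 and 418, and Foxp3 cells, which are regulatory T cells, 388 and 57. H2-K1 was highest in Foxp3 cells (4157 and 3832 CPM), then Cd4 cells (3653 and 3194 CPM), and lowest in Cd8a cells (2726 and 2929 CPM). Its combo to lenvatinib ratio was 0.874 in Cd4 cells (0.846 to 0.904), 0.922 in Foxp3 cells (0.868 to 0.978) and 1.07 in Cd8a cells (1.06 to 1.09). The close to equal level of all T cells thus included subsets on both sides of 1, beside T cells that were in none of these sub-gates. H2-D1 was higher under combo in all 3 (1.46 in Cd8a, 1.20 in Cd4 and 1.34 in Foxp3 cells), and so was Psmb8 (1.41, 1.29 and 1.30). Nlrc5 was at 0.637 in Cd8a cells (0.587 to 0.691), 0.448 in Cd4 cells (0.350 to 0.570) and 0.653 in Foxp3 cells (0.396 to 1.02).

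Neutrophils were divided by Ltf, which encodes lactoferrin and is made by immature neutrophils, a division added after the data were seen. Ltf cells were 58 of 681 under lenvatinib and 446 of 1468 under combo, and in CPM they had lower values of every one of the 10 genes than the remaining neutrophils in both libraries. Under lenvatinib the intervals of Tap2, Nlrc5 and Psmb9 overlapped between the 2 subsets. Ltf cells were deeper, with medians of 6510.5 and 12235 UMIs against 2449 and 3907. H2-K1 had 333 UMIs in 58 Ltf cells and 2830 in 623 others under lenvatinib, and 2428 in 446 and 4823 in 1022 under combo, so per cell it was not lower in Ltf cells. H2-K1 was at 720 CPM in Ltf cells and 1524 CPM in the others under lenvatinib, and at 436 and 957 CPM under combo. The combo to lenvatinib ratio of H2-K1 was 0.605 in Ltf cells (0.540 to 0.681) and 0.628 in the others (0.600 to 0.658), against 0.501 in the whole gate. For B2m it was 0.535 in both, and for Nlrc5 0.291 in Ltf cells (0.141 to 0.658) and 0.369 in the others (0.252 to 0.540). H2-D1 was at 1.46 in Ltf cells (1.29 to 1.65) and 1.20 in the others (1.15 to 1.26), both above the 1.05 of the whole gate. Psmb8 was at 0.946 (0.719 to 1.27) and 0.996 (0.883 to 1.13), whereas with the neutrophils divided by Ptgs2, another division added after the data were seen, it was at 0.869 in Ptgs2 cells (0.744 to 1.02) and 0.828 in the others (0.711 to 0.969). The lower H2-K1, B2m and Nlrc5 levels were present in both Ltf subsets. For Tap1 (0.891, 0.575 to 1.45), Tap2 (0.913, 0.606 to 1.44), Tapbp (0.896, 0.671 to 1.22) and Psmb10 (0.612, 0.362 to 1.11) the interval held 1 in Ltf cells. It lay below 1 in the others for each of these genes.

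The summed CPM of interferon-stimulated genes was lower under combo in every gate, although in B cells by less than the shift of all genes there (median ratio 0.753). The summed level of 8 of them (Isg15, Ifit1, Ifit3, Rsad2, Irf7, Oasl2, Ifi27l2a and Usp18) was 894 and 479 CPM in T cells, 269 and 137 in NK cells, 449 and 409 in B cells, 1399 and 767 in monocytes/macrophages, 2105 and 790 in neutrophils and 1129 and 699 in dendritic cells (lenvatinib and combo). Within a library, T cells with at least 3 UMIs of the list were compared with T cells with 0, all thinned to 2000 UMIs. Under lenvatinib, in 1187 against 2034 T cells, all 10 genes had intervals above 1, with a median ratio of 1.49, from 1.29 for H2-K1 to 1.90 for Tap1. Over all genes with at least 50 UMIs in the compared cells, 15.3% had such an interval and the median ratio was 1.04. Under combo, in 426 against 2064 T cells, 8 of 10 had (7.59% of all genes), with a median of 1.28, and the intervals of Tap2 and Nlrc5 held 1. In neutrophils under combo, in 258 against 743 cells, all 10 had (11.5% of all genes), with a median of 2.04, and Tap1 was at 32.3 CPM in cells with 0 and 110 CPM in cells with at least 3 (3.42-fold, 2.29 to 5.13). Under lenvatinib 2 of 10 had intervals above 1 in neutrophils (203 against 160 cells, with 15.5% of all genes), and 9 of 10 in NK cells (136 against 1699, with 6.59%). In B cells 0 of 10 had under lenvatinib and 3 under combo (5.25% and 7.34% of all genes), with 59 and 78 cells of at least 3 UMIs. In dendritic cells under lenvatinib (77 against 88 cells) 1 of 10 had, with a median of 1.10 and 10.8% of all genes, and in monocytes/macrophages under combo (76 against 172) 5 of 10 had, with a median of 1.28 and 15.4% of all genes. The remaining gates had too few cells for this division.

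In T cells with 0 UMIs of the list, Nlrc5 was at 94.1 CPM under lenvatinib and 59.1 CPM under combo, Tapbp at 212 and 155 CPM, H2-D1 at 1104 and 1651 CPM, and Psmb8 at 352 and 547 CPM. The other 6 genes were at 2897 and 3004 CPM for H2-K1, 2155 and 2021 for B2m, 104 and 102 for Tap1, 92.4 and 109 for Tap2, 154 and 172 for Psmb9 and 158 and 181 for Psmb10. Psmb9 was thus higher under combo in these cells, with overlapping counting intervals, while its interval in all T cells held 1 (0.966, 0.930 to 1.003). Tap1 was closer to equal than in all T cells (0.810). The ratios of all T cells are without thinning. The part of the interferon-stimulated genes in the differences between libraries was not tested.

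**Figure D5:**
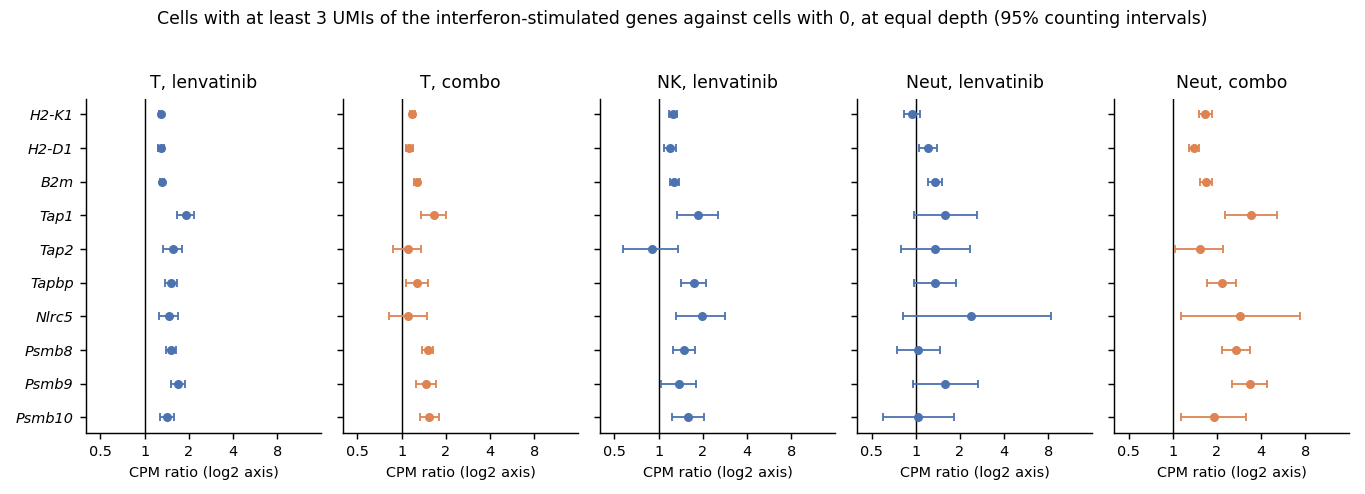
Ratio of CPM in cells with at least 3 UMIs of 8 interferon-stimulated genes to CPM in cells with 0 (x axis, log2 scale) for each of the 10 genes (y axis), in cells thinned to 2000 UMIs, with 95% counting intervals. All 10 genes lie above 1 in T cells under lenvatinib and in neutrophils under combo, where Tap1 reached 3.42; NK cells under combo had too few cells for this division.

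The wider class I pathway was described with 36 further genes. Of 5 genes of peptide loading and trimming (Calr, Canx, Pdia3, Erap1 and Tapbpl), all 5 had intervals below 1 in T cells and in neutrophils, with 1 and 5 of them at least 1.5-fold lower. These stand beside 43.8% and 55.8% of all genes with such an interval and 13.5% and 47.0% of all genes past that fold, and Calr, at 0.90 in T cells, was at the median ratio of all genes there (0.899). Canx, which encodes the chaperone calnexin, was at 0.65 in T cells and 0.43 in neutrophils, and Erap1, which encodes the peptidase that trims class I peptides, at 0.70 and 0.31. The proteasome activator genes Psme1 and Psme2 both had intervals below 1 in every gate except B cells, where that of Psme2 held 1. They were at 0.89 and 0.89 in T cells, close to the median of all genes, and Psme2 in neutrophils was above that median by 0.13 on the log2 scale. Of 8 other class I and class I-like genes, 5 had intervals above 1 and 2 below 1 in T cells, and in neutrophils 0 and 5 of the 7 with at least 50 UMIs did, where 18.1% and 43.8% of all genes had such intervals in T cells and 6.81% and 55.8% in neutrophils. H2-Q7 was at 1.11 in T cells and 0.38 in neutrophils and H2-M3 at 1.19 and 0.50, whereas H2-Q6 was at 0.86 and 0.37 and H2-Q4 at 0.93 and 0.43. In neutrophils the intervals of H2-T23 (0.92, 0.81 to 1.05) and Cd1d1 (1.26, 0.59 to 3.08) held 1. H2-T22 was at 0.72 there. Relative to the median of all genes, H2-T23 and H2-T22 were higher in neutrophils, by 0.43 and 0.08 on the log2 scale. Among the regulators, Nfkb1, which encodes a subunit of NF-kappaB, was below 1 in all 6 gates (0.68 in T cells and 0.51 in neutrophils). Relative to the median of all genes its log2 ratio was -0.40 and -0.42, and that of Rela, another subunit gene, -0.09 and -0.04. Nfkb1 spans 107 kb, and its log2 ratios of -0.56 and -0.97 stood beside medians of -0.30 and -0.76 in its span class. In CPM Irf1 was on both sides of 1, at 0.98 in T cells (0.94 to 1.02), 1.13 in NK cells (1.05 to 1.20), 1.20 in monocytes/macrophages (1.02 to 1.41), 0.77 in B cells (0.64 to 0.93), 0.79 in neutrophils (0.71 to 0.88) and 0.89 in dendritic cells (0.80 to 0.99). Relative to the median of all genes its log2 ratio was 0.03 in B cells, 0.20 in neutrophils and -0.08 in dendritic cells. In neutrophils it was at 0.653 and 1.09 UMIs per cell (lenvatinib and combo). Rfxap, which encodes a subunit of the RFX complex at the X box, was at 1.19 in T cells (1.09 to 1.30) and 1.51 in NK cells (1.29 to 1.75), whereas Rfx5, another subunit, was at 0.66 (0.54 to 0.81) and 0.71 (0.53 to 0.95).

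The interferon gamma pathway was not uniform. Ifng was at 1.41 in T cells (1.36 to 1.46) and 0.97 in NK cells (0.92 to 1.01), and the receptor gene Ifngr1 at 1.39 in T cells (1.36 to 1.43), 1.42 in NK cells (1.37 to 1.47), 1.35 in monocytes/macrophages (1.20 to 1.53) and 0.76 in neutrophils (0.69 to 0.85). Relative to the median of all genes Ifngr1 in neutrophils was higher by 0.16 on the log2 scale, and it was at 0.649 and 1.05 UMIs per cell there (lenvatinib and combo). Jak2, which encodes a kinase of that receptor, was at 0.79 in T cells and 0.41 in neutrophils. Relative to the median of all genes its log2 ratio was -0.19 and -0.74. Jak2 spans 61.3 kb, and its log2 ratios of -0.34 and -1.30 stood beside medians of -0.29 and -0.65 in its span class. Class II genes served as a contrast, since they are controlled by CIITA and are made by antigen-presenting cells. In monocytes/macrophages all 5 of them were at least 1.5-fold lower under combo, beside 18.4% of all genes, with H2-Aa at 0.32 (0.30 to 0.34) and Cd74 at 0.42 (0.40 to 0.43), a lower ratio than that of H2-K1 in the same gate. The summed level of 5 dendritic markers in this gate was 227 CPM under lenvatinib and 66.7 CPM under combo. Among them Cd209a was at 180 and 40.3 CPM. The part of these dendritic markers in the class II ratios was not tested. Nor was that of the C1qa cells and of the neutrophil and lymphocyte transcripts of this gate, given above. In B cells H2-Aa was at 1.251 (1.21 to 1.30) and H2-Eb1 at 1.35 (1.29 to 1.40), whereas Ciita was at 0.56 (0.47 to 0.68). The median ratio of all genes there was 0.753, and 20.6% of tested genes had a lower ratio than Ciita. Ciita spans 48.4 kb, and its log2 ratio of -0.83 stood beside a median of -0.59 in its span class.

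The mean profile of the 10 genes over the 12 sums of type and library was highest in T cells (0.81 and 0.72, in units of SD after each gene was centered and scaled) and lowest in neutrophils under combo (-1.67). With this profile Psmb10 had a Pearson r of 0.873, H2-K1 0.863 and Tap1 0.844, and at the other end Tapbp had 0.583 and H2-D1 0.510. Many genes outside the list were more alike, since Psmb10 ranked 184 of 4837 genes, Tapbp 1732 and H2-D1 2041. H2-K1 and B2m were the most alike pair (r = 0.916), whereas H2-D1 and Tapbp had an r of -0.26. Among these genes, which had at least 50 CPM in 1 sum, the 10 most like the profile outside the list were Fyn, Fnbp1, Tomm5, Hpf1, Galnt2, Dynll2, Padi2, Psme1, Anxa6 and Nfatc2, with r from 0.967 for Fyn to 0.945 for Nfatc2. Fyn, which encodes a kinase of T cell receptor signaling, was at 319 and 238 CPM in T cells and 52.2 and 20.6 CPM in neutrophils. The 12 sums share 2 libraries and 6 gates, so that these values describe likeness over 12 points and carry no p-value.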

How the data were processed

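Live CD45+ cells of 2 libraries were measured by 10x 3′ v3 scRNA sequencing. The deposited matrices hold raw UMI counts, neither normalized nor filtered for cells beyond the barcode calling. Alignment was to mm10; the submitters' processing notes name Cell Ranger 5.0.1 and the header of the deposited matrices names 6.0.1. The 10 genes and all lists were chosen with earlier results of these data known. Counts were summed per gate and library with Python 3.11.15, numpy 2.4.6, scipy 1.17.1 and pandas 2.3.3, and scaled to CPM over all genes. Intervals (95%) were exact Poisson for levels, conditional exact binomial for ratios and Clopper-Pearson for shares, and cover counting error only. Cells are not replicates, so no p-value or standard error was computed. The background in each gate was all genes with at least 50 UMIs in the libraries together. Genes named were the 10, the wider list of 36, and the 10 most alike by Pearson r of log2(CPM + 1) over 12 sums. Doublets were kept and removed in an alternative, as called per library with Scrublet in scanpy 1.11.5 (4.46% of cells under lenvatinib and 2.76% under combo); figures used matplotlib 3.10.9. Gene positions are from GENCODE M21 and promoters from RefSeq, both GRCm38. Sub-gates of cells with Xcr1, Cd209a, Ccr7 or C1qa held under 50 cells in a library and were not used. On simulated counts for the T gate (11163 genes, 200 changed), the interval held the true ratio for 93% of changed genes; for the dendritic gate (5889 genes) it did for 96%. Alternatives covered the cell filter, gates, doublets, CPM total, centering, thinning, fold and background filter, and others were added after the data were seen, namely S100a8 and S100a9 out of the total, span class, shared barcodes and the division of neutrophils by Ptgs2 or Ltf. Clustering and the study's cell type annotation were not used here. The result of 1 gene of the wider list is not reported here.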

Additional observations from a re-analysis of the deposited data

Results flagged for a closer look

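In 3 of the 10 genes the interval of the combo to lenvatinib ratio lay above 1 in some gates and below 1 in others. H2-K1 had a ratio of 1.06 in NK cells and 0.501 in neutrophils. Psmb8 had a ratio of 1.37 in T cells and 0.843 in neutrophils. Psmb10 had a ratio of 1.18 in dendritic cells and 0.535 in neutrophils. Relative to the median of all genes, Psmb8 in neutrophils was higher by 0.30 on the log2 scale, while H2-K1 and Psmb10 remained lower there, at -0.45 and -0.35. In UMIs per cell all 3 were higher under combo in neutrophils, with ratios of 1.06 for H2-K1, 1.79 for Psmb8 and 1.13 for Psmb10, so that the lower neutrophil values hold relative to the total and not per cell. At an equal depth of 2000 UMIs the log2 ratio of Psmb10 in dendritic cells was -0.215. The difference between gates was not tested, since each condition had 1 library. For Psmb8 the neutrophil interval held 1 in Ltf cells and in the other neutrophils taken apart, and with a division by Ptgs2 it held 1 in Ptgs2 cells (0.869, 0.744 to 1.02) and lay below 1 in the others (0.828, 0.711 to 0.969).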

How the results depend on the processing

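Of the 60 gene and gate pairs, 36 kept the sign of their log2 ratio under all 12 alternatives that recompute it, among them all 13 pairs at least 1.5-fold lower. No cell filter, a limit of 10% mitochondrial UMIs, a gate of 2 UMIs, a gate with a check marker, removal of called doublets, thinning to 2000 UMIs and removal of the shared barcodes moved none of the 12 counts and medians compared by more than 1.5 times (counts) or past the medians of the interval bounds of the 10 genes (medians). Single pairs moved more, since 52 of 60 kept their sign under thinning and 57 at 10% mitochondrial UMIs. The median log2 ratio of the 10 genes in neutrophils, -0.747, was -0.390 with gates that ignore the other gate genes and -0.518 with S100a8 and S100a9 out of the total, and that in T cells, -0.018, was 0.053 without mitochondrial, ribosomal protein and hemoglobin genes. Centered on the median ratio of all genes, 6 pairs were at least 1.5-fold higher and 6 lower, in place of 0 and 13, and the medians were 0.135 in T cells, 0.064 in NK cells, 0.331 in B cells and -0.197 in neutrophils. Relative to the same span class, no pair was at least 1.5-fold higher and 6 were lower. The medians were then 0.081 in B cells and -0.305 in neutrophils. With a fold limit of 5 to 4, 6 pairs were higher and 23 lower, and with a fold of 2, 4 were lower. The share of all genes lower in monocytes/macrophages, 18.4%, was 11.278% with at least 200 counts. The cause of these shifts was not tested. The S100a8 and S100a9, span class and shared barcode alternatives and the neutrophil divisions were added after the data were seen. No paired analysis was possible because each condition had 1 library. Counts of Nlrc5 were low, with 37 UMIs as the lowest count of any of the 10 genes in the 6 gates. In the sub-gate of Ltf neutrophils under lenvatinib Nlrc5 had 10 UMIs.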

Other observations

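Cells outside the gates were described separately. Cells with no gate gene (2535 under lenvatinib and 1449 under combo) had H2-K1 at 2816 and 2118 CPM, H2-D1 at 1192 and 1303 CPM, and Nlrc5 at 76.1 and 31.4 CPM. Cells with several gate genes (2327 and 2667) had H2-K1 at 2481 and 1724 CPM, H2-D1 at 1141 and 1291 CPM, and Nlrc5 at 56.6 and 26.7 CPM.

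Over all kept cells, whatever their type, H2-K1 was at 2757 and 2081 CPM and H2-D1 at 1185 and 1388 CPM. These levels also follow the makeup of the libraries, in which neutrophils were 4.80% of cells under lenvatinib and 12.6% under combo and NK cells 17.7% and 8.45%.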
